A study of Mus musculus with 6 samples.

Results

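The monocyte and macrophage lineage genes described here are Csf1r, Ly86, F13a1, Igsf6, Lyz2, Ly6c2, Ccr2, Klf4, Fcgr3 and Tnfaip2, 10 of the 45706 genes of the count table, found there by gene identifier. They were chosen by symbol for their lineage, with earlier results of these data known. All 10 passed the low-count filter of edgeR at its defaults, as did 15184 genes in total. Monocytes arise from granulocyte-monocyte progenitors, and the lymphoid-primed multipotential progenitors of the LSK compartment already carry granulocyte and monocyte potential and a low level of such transcripts. Commitment is driven by the transcription factors PU.1 and IRF8, survival and growth of the lineage depend on the M-CSF receptor, and release of monocytes from the bone marrow depends on the chemokine receptor CCR2. The list holds receptors (Csf1r, Ccr2, Fcgr3), further surface proteins (Ly6c2, Ly86, Igsf6), enzymes (F13a1, Lyz2), a cytoplasmic protein (Tnfaip2) and a transcription factor (Klf4).

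RNA came from LSK cells (Lin- Sca-1+ c-Kit+) sorted from the bone marrow of male C57BL/6 mice, with 1 library per mouse. The 3 Ctrl mice were Setd1b HET (FD/+; RC/+), the 3 cKO mice were Setd1b HOM (FD/FD; RC/+), and all were 16 weeks old except cKO mouse AH74, which was 17 weeks old. All 6 mice carried the Rosa26-Cre-ERT2 allele (RC), which deletes in almost all tissues and not in blood cells alone, and received tamoxifen by gavage at 4.5 mg per day on 4 days and, after 3 days without, on 2 further days, so that the Ctrl mice had also lost 1 allele of the H3K4 methyltransferase. This scheme is that of the sample labels, and the methods of the study give fewer doses. They were killed 3 days after the last dose, and the comparison asks which transcripts had changed at that early time.

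The libraries held between 13003573 and 21277519 counts. The table numbers them in 2 runs, called library series here, the first with Ctrl mouse AI03 beside cKO mice AI02 and AI55, the second with Ctrl mice AI54 and AI56 beside cKO mouse AH74. Setd1b itself was at 221, 194 and 223 CPM (counts scaled to the TMM-adjusted library size) in Ctrl and at 272, 288 and 314 CPM in the libraries that carry the cKO label, higher in all 3 of the latter (log2 fold change 0.46, adjusted p = 0.0015). These counts cover the whole gene, of which Cre removes a single exon, so that they do not check the deletion, and directions below are those of the libraries labelled cKO against Ctrl. The study checked the deletion in other mice, weeks after tamoxifen. It reports complete recombination by PCR in sorted bone marrow populations and loss of Setd1b mRNA by qRT-PCR in multipotential progenitors. The LSK markers Kit, Ly6a and Cd34 were present in every library and had log2 fold changes from -0.23 to 0.01, and none of the 3 passed the test. Of the 12 LSK markers fixed for this check, 3 were higher, among them Procr and Mecom, and none was lower at an adjusted p-value under 0.05.

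Of the 10 monocyte and macrophage genes, 8 were lower in cKO with adjusted p-values under 0.05 (edgeR's quasi-likelihood test, Benjamini-Hochberg adjustment over all 15184 genes), where 3.79% of all genes tested were lower by this rule. None was higher, either in edgeR, also at an unadjusted p under 0.05, or with DESeq2, where 3.88% of all genes tested were higher by the edgeR rule. The median log2 fold change of the 10 genes was -1.02, against 0.00023 over all genes tested. A fall of more than 2-fold was fitted for 5 genes, namely Ccr2, F13a1, Ly6c2, Fcgr3 and Ly86, where 1.05% of all genes tested fell that far. The values of all 3 cKO libraries lay below those of all 3 Ctrl libraries for 9 of the 10 genes, a pattern that 13.4% of all genes tested showed. The exception was Klf4. DESeq2 also called 8 of them lower (4.27% of all genes it tested), a threshold of 0.01 left 7 (1.79% of all genes), and a fitted log2 fold change below 0 was found for 9 (49.9% of all genes). In sorted but bulk RNA, fewer cells that carry a transcript and less of it per cell cannot be told apart. The study states, without showing data, that LSK composition differed little between the groups at this time. It also found Klf1, Mpo and Ighm lower by qRT-PCR, each in a sorted LSK subset. None of these is among the genes described here, for which this was not tested.

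**Figure D1:**
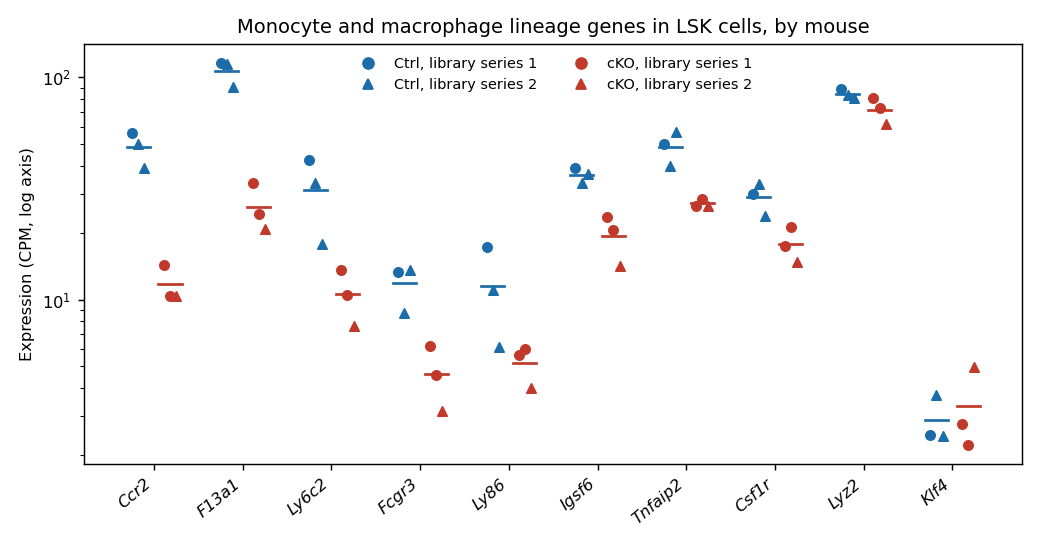
Expression of the 10 monocyte and macrophage lineage genes in each mouse, as CPM on a log axis; blue marks Ctrl and red cKO, circles library series 1 and triangles series 2, and horizontal lines are the means of 3 mice. For 9 genes the red points lie below all blue points, most widely for Ccr2 (48.5 against 11.7 CPM on average) and F13a1 (107 against 26.1 CPM), whereas for Klf4 the groups overlap.

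Csf1r (ENSMUSG00000024621) encodes the receptor for M-CSF and IL-34, on which survival and differentiation of macrophages depend. It was at 29.8, 33.2 and 23.7 CPM in Ctrl mice AI03, AI54 and AI56 and at 17.5, 21.2 and 14.8 CPM in cKO mice AI02, AI55 and AH74. The groups did not overlap, although the lowest Ctrl and the highest cKO mouse were close. Fitted by edgeR, the log2 fold change was -0.70 (SE 0.15, adjusted p = 0.0086), and the largest adjusted p-value over the 6 fits without 1 mouse was 0.043. Its fall was the smallest of the 8.

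Ccr2 (ENSMUSG00000049103, chr9:124101950-124113557 in mm10) encodes the receptor for the chemokine CCL2. Its expression was 56.1, 50.1 and 39.3 CPM in the Ctrl mice and 14.3, 10.4 and 10.4 CPM in the cKO mice, in the same order of mice. Every cKO mouse lay far below every Ctrl mouse, and the spread within both groups was small beside this gap. A log2 fold change of -2.05 (SE 0.15, adjusted p = 8.1e-07) placed Ccr2 13th by p-value among all genes tested and 59th by size among the 575 lower genes. With a mouse left out it stayed between -2.22 and -1.93.

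Fcgr3 (ENSMUSG00000059498, chr1:171051174-171064935 in mm10) encodes the low-affinity IgG receptor CD16. It was at 13.3, 8.68 and 13.6 CPM in Ctrl and at 6.16, 4.57 and 3.16 CPM in cKO, again without overlap. For this receptor the log2 fold change was -1.34 (SE 0.24, adjusted p = 0.0031). The sorting panel of the study detected CD16 together with CD32, the product of the neighbouring gene Fcgr2b, but this stain did not define the LSK gate. Fcgr2b, an inhibitory receptor, was at 20.7 ± 3.27 CPM in Ctrl and 14.2 ± 3.01 CPM in cKO (SD, n = 3 each). Its log2 fold change of -0.54 did not pass the threshold (adjusted p = 0.055). It passed in 5 of 13 other settings, among them the fits without cKO mouse AI02 (-0.71, adjusted p = 0.026) and without Ctrl mouse AI56 (-0.65, adjusted p = 0.046).

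The partners of these receptors did not all follow. Fcer1g, the signalling chain of activating Fc receptors, showed a log2 fold change of -0.18 (adjusted p = 0.42) and its relative Tyrobp of -0.16 (adjusted p = 0.50). Of the other colony-stimulating factor receptors, Csf2ra showed a log2 fold change of -0.05 (adjusted p = 0.83) and Csf2rb of 0.27 (adjusted p = 0.15), whereas Csf2rb2, the beta chain specific for IL-3, rose from 13.8 ± 3.67 to 33.0 ± 3.97 CPM (SD, n = 3 each; log2 fold change 1.24, adjusted p = 2.3e-04). Csf3r, the G-CSF receptor, fell by 0.33 in log2 units (adjusted p = 0.033) and missed the threshold without cKO mouse AI55 (-0.25, adjusted p = 0.17), cKO mouse AH74 (-0.35, adjusted p = 0.064) or Ctrl mouse AI56 (-0.25, adjusted p = 0.15), and also with the library series as a covariate (-0.30, adjusted p = 0.059). Whether these genes differ from Csf1r in their change was not tested. Among 8 ligands of the monocyte receptors, Csf1 alone passed the filter (log2 fold change 0.35, adjusted p = 0.20), and Il3 and Ccl7 had no count in any library.

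Ly6c2 (ENSMUSG00000022584, chr15:75108158-75111970 in mm10) encodes the Ly6C antigen that marks classical monocytes. It was at 42.5, 33.5 and 17.7 CPM in Ctrl and at 13.6, 10.5 and 7.58 CPM in cKO. The Ctrl mice were widely spread, yet the lowest of them, AI56, was above every cKO mouse. Its log2 fold change was -1.56 (SE 0.26, adjusted p = 0.0016). The lineage cocktail of the sort contained the Gr-1 antibody, which binds Ly6G and, as known for this clone, also Ly6C. Ly6g had at most 2 counts in a library.

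Ly86 (ENSMUSG00000021423, chr13:37345345-37419036 in mm10) encodes MD-1, the secreted partner of the Toll-like receptor homologue CD180. It was at 17.2, 11.0 and 6.14 CPM in Ctrl and at 5.63, 5.97 and 4.00 CPM in cKO, so that Ctrl mouse AI56 nearly reached the cKO mice. A log2 fold change of -1.13 (SE 0.29) gave an adjusted p = 0.030, the highest of the 8. It missed the threshold without cKO mouse AI02 (-1.18, adjusted p = 0.067), AI55 (-1.24, adjusted p = 0.072) or AH74 (-0.97, adjusted p = 0.11) and without Ctrl mouse AI03 (-0.73, adjusted p = 0.11). Cd180, the receptor that MD-1 carries to the cell surface, was lower as well, at 22.3, 23.4 and 23.2 CPM in Ctrl and 12.9, 15.7 and 9.40 CPM in cKO (log2 fold change -0.86, adjusted p = 0.0032). Both genes of this receptor complex therefore stood lower, and Cd180 had the tighter replicates in Ctrl only.

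Igsf6 (ENSMUSG00000035004, chr7:121064067-121074530 in mm10) encodes an immunoglobulin superfamily membrane protein of myeloid cells. It was at 39.2, 33.6 and 36.7 CPM in Ctrl and at 23.5, 20.5 and 14.2 CPM in cKO. No overlap was seen, and the log2 fold change was -0.91 (SE 0.15, adjusted p = 0.0015).

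F13a1 (ENSMUSG00000039109, chr13:36867178-37050244 in mm10) encodes the A subunit of coagulation factor XIII, a transglutaminase that monocytes and megakaryocytes make. Its expression was 116, 115 and 90.6 CPM in Ctrl and 33.5, 24.2 and 20.7 CPM in cKO. The lowest Ctrl mouse was 2.70-fold above the highest cKO mouse, and the log2 fold change was -2.03 (SE 0.14, adjusted p = 4.3e-07), 11th by p-value among all genes tested. The study lists F13a1 and Ccr2 among its own strongly lower genes of these libraries. Every gene of the list was measured in these same libraries and chosen with their earlier results known. None of them is therefore independent evidence for the group.

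Lyz2 (ENSMUSG00000069516, chr10:117277334-117282274 in mm10) encodes lysozyme M, a bactericidal enzyme of macrophages and neutrophils. It was at 88.8, 83.2 and 80.5 CPM in Ctrl and at 80.4, 73.0 and 61.6 CPM in cKO. The highest cKO mouse, AI02, lay only just below the lowest Ctrl mouse, AI56. With a log2 fold change of -0.23 (SE 0.09, adjusted p = 0.14) Lyz2 did not pass. It passed in 1 of 13 other settings, with the library series as a covariate (-0.31, adjusted p = 0.028), where 9 of the 10 genes were lower against 3.47% of all genes tested. Lyz2 and Klf4 were the members of the list that did not pass.

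Tnfaip2 (ENSMUSG00000021281, chr12:111442469-111455018 in mm10) encodes a TNF-inducible cytoplasmic protein, M-Sec, known for membrane nanotubes of macrophages. It was at 50.05, 39.8 and 56.7 CPM in Ctrl and at 26.4, 28.5 and 26.4 CPM in cKO, with the cKO mice very close to one another. Its log2 fold change was -0.85 (SE 0.12, adjusted p = 4.6e-04).

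Klf4 (ENSMUSG00000003032, chr4:55527143-55532466 in mm10) encodes a zinc finger transcription factor required for Ly6C-high monocytes. It was the lowest of the 10 genes, at 2.45, 3.72 and 2.43 CPM in Ctrl and at 2.75, 2.22 and 4.98 CPM in cKO, from between 32 and 78 counts per library. The groups overlapped throughout. With a log2 fold change of 0.19 (SE 0.33, adjusted p = 0.79) it did not pass, and the sign turned, to -0.22 (adjusted p = 0.79) without cKO mouse AH74, which had the highest value.

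**Figure D2:**
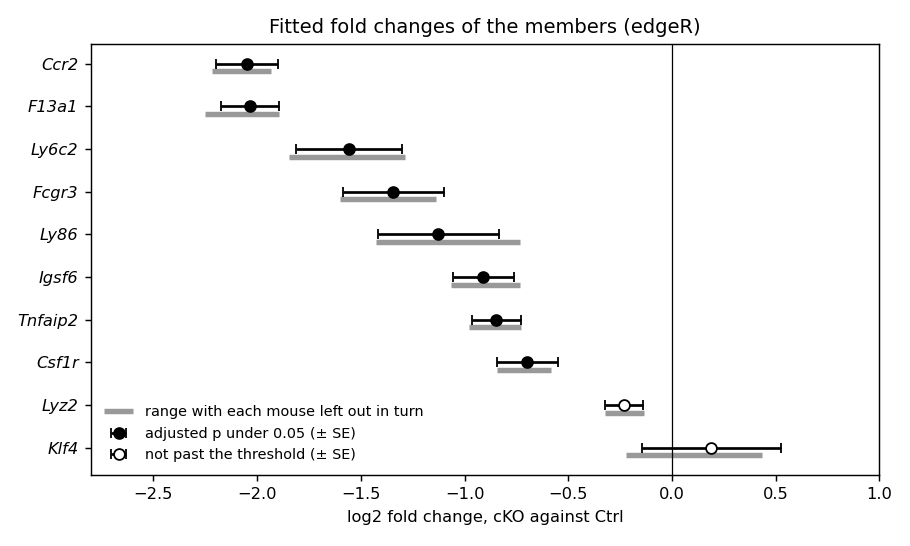
Fitted log2 fold changes, cKO against Ctrl, of the 10 genes, with standard errors from edgeR's quasi-likelihood test; grey bars are the range with each of the 6 mice left out in turn, and open circles did not pass an adjusted p of 0.05. The points run from -2.05 for Ccr2 to 0.19 for Klf4, and Klf4 alone has a grey bar that crosses 0.

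To compare levels between genes, CPM were divided by the exon length in kilobases. In Ctrl, Lyz2 stood first at 66.5 ± 3.36 CPM per kilobase (SD, n = 3), followed by F13a1 at 27.3 ± 3.64 and Igsf6 at 17.1 ± 1.31. From Igsf6 down to Csf1r at 5.92 ± 0.983 CPM per kilobase, each gene overlapped the next in order, namely Ly86, Ly6c2, Tnfaip2, Ccr2, Fcgr3 and Csf1r, and Klf4 was last at 0.940 ± 0.242. In cKO, Lyz2 remained first at 56.6 ± 7.49 CPM per kilobase and Klf4 last at 1.09 ± 0.480, while Igsf6 at 9.09 ± 2.23 came before F13a1 at 6.65 ± 1.69. Ccr2 moved from seventh to ninth place, at 1.83 ± 0.356 CPM per kilobase. From Igsf6 to Klf4 every neighbouring pair overlapped in cKO, so that the order there is not fixed beyond the first place.

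Individual mice kept a similar order across the genes. Within the cKO group, AH74 was lowest for 9 of the 10 genes and AI02 highest for 6. Within Ctrl, AI56 was lowest for 7 and AI03 highest for 6. The same counts over all genes tested were not computed, so that an order particular to these genes is not shown. AH74 is the only cKO mouse of the second library series and AI03 the only Ctrl mouse of the first, so that mouse and series cannot be told apart here.

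Computed within each series, as differences of mean log2 CPM, cKO was below Ctrl in both series for 9 of the 10 genes, where 31.3% of all genes tested were lower in both. The median difference was -1.09 in the first and -1.16 in the second series. For Ccr2 the differences were -2.19 and -2.08, for F13a1 -2.02 and -2.29, for Ly6c2 -1.82 and -1.67 and for Tnfaip2 -0.87 and -0.85. These pairs lay close together. The series were further apart for Ly86, at -1.55 and -1.02, and for Igsf6, at -0.83 and -1.30. Fcgr3 gave -1.31 and -1.74, Csf1r -0.62 and -0.92, and Lyz2 -0.21 and -0.41. Klf4 was at 0.01 in the first and at 0.70 in the second series. Whether the series differ was not tested, since each compares 3 mice only.

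**Figure D3:**
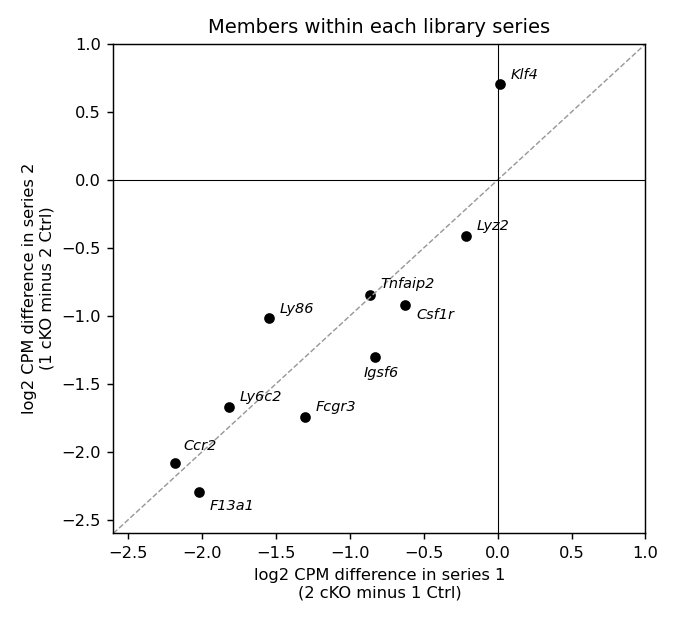
Differences in mean log2 CPM of the 10 genes within library series 1 (2 cKO minus 1 Ctrl mouse, horizontal) and series 2 (1 cKO minus 2 Ctrl mice, vertical); the dashed line marks equal differences. All genes except Klf4 lie in the lower left quadrant, from -0.21 and -0.41 for Lyz2 to -2.19 and -2.08 for Ccr2.

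Other genes of the monocyte and macrophage program had a median log2 fold change close to 0. Over 4 lists of receptors, effector proteins, transcription factors and ligands with 87 genes, 70 were tested, 14 were lower and 6 higher, and the median was -0.05. The lower genes were 20% of those tested, against 3.79% of all genes, and the difference from the 10 genes was not tested. Of 26 other receptors and signalling proteins tested, 6 were lower and 2 higher, with a median of -0.12. Clec12a, an inhibitory C-type lectin, was at 97.6, 78.0 and 65.3 CPM in Ctrl and fell to 22.8, 24.1 and 17.5 CPM in cKO (log2 fold change -1.90, adjusted p = 8.9e-07). Cx3cr1, the fractalkine receptor, fell by 1.41 in log2 units (adjusted p = 0.0058). Itgam, the CD11b chain, rose by a log2 fold change of 0.43 (adjusted p = 0.019), which missed the threshold without cKO mouse AI02 (0.32, adjusted p = 0.10), cKO mouse AI55 (0.45, adjusted p = 0.064), Ctrl mouse AI03 (0.40, adjusted p = 0.055) or Ctrl mouse AI54 (0.42, adjusted p = 0.052). The count of higher receptors dropped to 1 without any one of these 4 mice. Cd14, the lipopolysaccharide co-receptor, was under 1 CPM in every library.

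Among 27 effector genes tested, 5 were lower and 3 higher, with a median of -0.06. The lower ones were Ncf1, a cytosolic subunit of the phagocyte NADPH oxidase (log2 fold change -0.94, adjusted p = 2.2e-05), the hexokinase Hk3 (from 91.8 to 45.9 CPM on average, adjusted p = 4.7e-05), the matrix protein Emilin2 (-0.75, adjusted p = 6.0e-05), the lipoxygenase Alox5 (-1.33, adjusted p = 1.0e-04) and the pore-forming protein Mpeg1 (-0.99, adjusted p = 0.0016). Apoe, an apolipoprotein that macrophages secrete, went the other way, from 196 ± 24.7 to 301 ± 50.2 CPM (SD, n = 3 each; log2 fold change 0.62, adjusted p = 0.0021). The count of higher effectors was 1 without cKO mouse AI02 or AI55 and without Ctrl mouse AI03 or AI56. The other higher effectors were the lysosomal proteases Lgmn (log2 fold change 0.81, adjusted p = 0.042) and Ctss (0.33, adjusted p = 0.042), whereas the lysosomal proteins Psap and Ctsb had log2 fold changes of -0.01 each (adjusted p = 0.95 and 0.97).

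Of 16 transcription factors of the lineage that were tested, 3 were lower and 1 higher, with a median of -0.03. Irf8, which directs progenitors towards monocytes, was at 112, 102 and 90.4 CPM in Ctrl and 67.1, 63.6 and 46.8 CPM in cKO, without overlap (log2 fold change -0.78, SE 0.11, adjusted p = 7.6e-04). Spi1, which encodes PU.1, was at 88.6, 105 and 109 CPM in Ctrl and 92.8, 92.2 and 80.7 CPM in cKO, with overlap (-0.19, adjusted p = 0.20). Tfec, a macrophage factor of the MiT family, fell by 1.13 in log2 units (adjusted p = 7.2e-04). Zeb2 fell by 0.24 (adjusted p = 0.028) and missed the threshold without any one mouse other than Ctrl mouse AI54, with adjusted p-values from 0.060 to 0.093. The single higher factor, Nfkbiz, missed the threshold without cKO mouse AI55 (0.42, adjusted p = 0.13), cKO mouse AH74 (0.43, adjusted p = 0.090), Ctrl mouse AI03 (0.40, adjusted p = 0.074) or Ctrl mouse AI56 (0.47, adjusted p = 0.080), which left none, and 2 were higher without cKO mouse AI02.

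**Figure D4:**
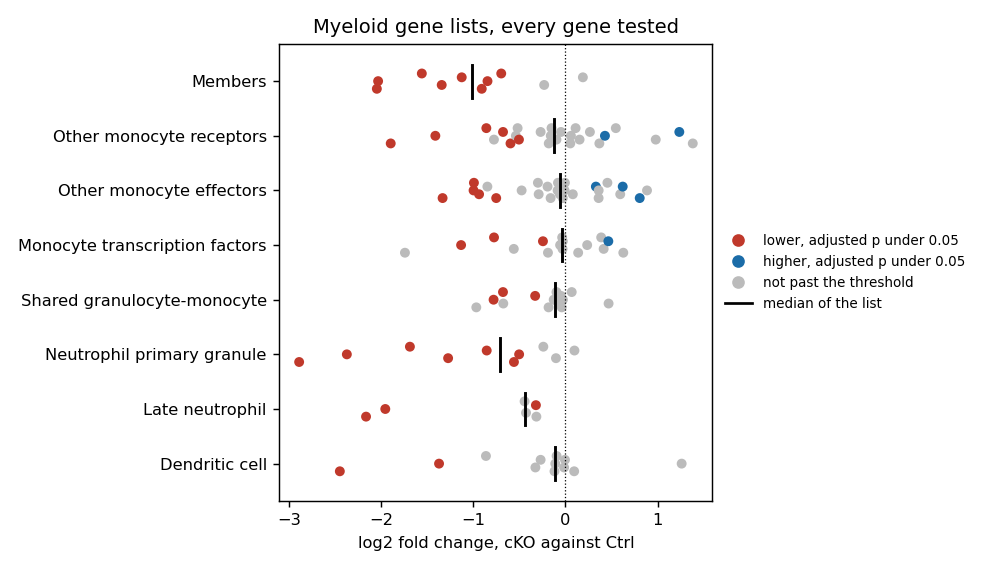
Log2 fold changes, cKO against Ctrl, of every tested gene in 8 myeloid lists, the first row being the 10 genes described here; red and blue points are lower and higher at an adjusted p under 0.05, grey points did not pass, and black bars are medians. The medians are -1.02 for the 10 genes, -0.71 for primary granule genes and -0.44 for late neutrophil genes. They lie between -0.12 and -0.03 in the receptor, effector and transcription factor lists.

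Genes of neutrophil primary granules served as the main comparison with another myeloid branch. Of 10 tested, 7 were lower and 9 had a negative log2 fold change, with a median of -0.71. Mpo, the myeloperoxidase of the granules, had a larger fall than any of the monocyte genes, at -2.89, and so had Elane, the neutrophil elastase, at -2.37. The study names both among its own strongly lower genes of these libraries, so that the list is not a neutral benchmark. Ctsg (-1.27), Ms4a3 (-1.69) and Prtn3 (-0.56) were also lower, Prtn3 without passing when cKO mouse AI55 (-0.49, adjusted p = 0.079) or AH74 (-0.47, adjusted p = 0.057) was left out. The summed expression of the monocyte genes lay between 367 and 455 CPM in Ctrl and between 168 and 224 CPM in cKO, and that of the granule genes between 3411 and 3942 CPM in Ctrl and between 953 and 1326 CPM in cKO.

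As a mean of log2 CPM over genes, the monocyte genes lay between 4.57 in mouse AI56 and 4.96 in mouse AI03 in Ctrl, and at 3.92, 3.73 and 3.52 in cKO mice AI02, AI55 and AH74. The tested granule genes were at 6.87 or above in Ctrl and at 6.19, 5.84 and 5.66 in the same cKO mice. Both means separated the groups. The monocyte mean minus the granule mean, by contrast, was -1.91, -2.18 and -2.43 in Ctrl mice AI03, AI54 and AI56 and -2.27, -2.11 and -2.14 in cKO, so that the cKO values fell within the range of the Ctrl values. Within the first library series both cKO mice lay below Ctrl mouse AI03 in this difference, and within the second AH74 lay above both Ctrl mice. The summed CPM, which give most weight to the highest genes, fell by a larger factor for the granule genes than for the monocyte genes. The measures thus differ, and whether the monocyte genes shifted relative to the granule genes was not tested.

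**Figure D5:**
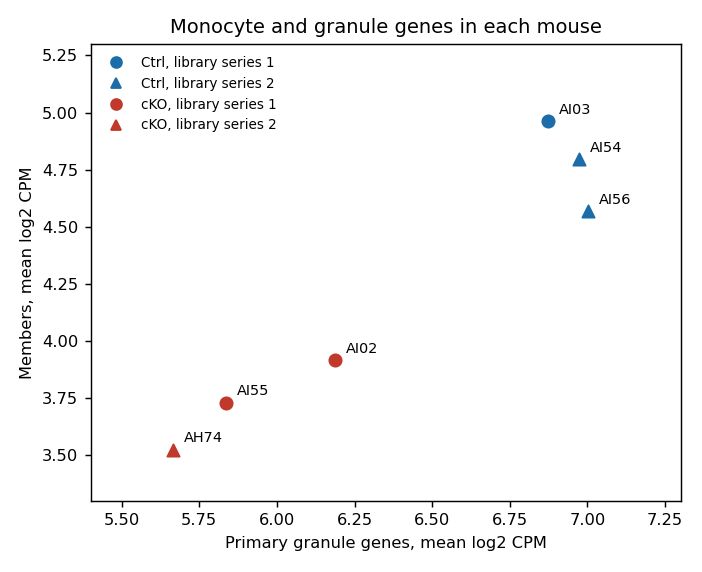
Mean log2 CPM of the 10 monocyte and macrophage genes (vertical) against that of 10 neutrophil primary granule genes (horizontal) in each mouse; blue marks Ctrl and red cKO, circles library series 1 and triangles series 2. The Ctrl mice lie at 4.57 to 4.96 on the vertical axis and the cKO mice at 3.52 to 3.92.

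Of 14 factors and receptors shared by both branches, 3 were lower (21.4%, against 3.79% of all genes tested), with a median of -0.11, and this count was 1 without cKO mouse AH74. Cebpa, which drives the granulocyte-monocyte fate, was among them (log2 fold change -0.68, adjusted p = 5.2e-04), and the study also names it as strongly lower. By contrast, Gfi1, which favours granulocytes over monocytes, was at -0.13 (adjusted p = 0.53). Late neutrophil genes were scarce, with 6 of 19 tested and a median of -0.44. Of these, 3 were lower, a count of 0 without cKO mouse AI02, AI55 or AH74 and of 1 without Ctrl mouse AI03 or AI56. Of 12 dendritic cell genes tested, 2 were lower, Zbtb46 and Clec9a, with a median of -0.11 over the list. None of them was called without cKO mouse AI55 or AH74 or without Ctrl mouse AI03 or AI56, and 1 was without Ctrl mouse AI54.

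Several marker lists of other cells moved with the genotype, and their part in the changes of the monocyte genes was not tested. Markers of mature tissue macrophages summed to between 31.1 and 36.2 CPM in Ctrl and between 25.7 and 30.4 CPM in cKO. Of 15, 11 were tested, 4 were lower, among them Cd5l and Vcam1, and 1, Axl, was higher. The complement genes C1qa, C1qb and C1qc, which define such macrophages, did not exceed 1.92 CPM in any library. Markers of mast cells, basophils and eosinophils summed to between 75.7 and 94.7 CPM in Ctrl and between 27.4 and 35.5 CPM in cKO, with 6 of 9 tested lower. Erythroid markers summed to between 437 and 477 CPM in Ctrl and between 270 and 321 CPM in cKO, with 4 of 7 tested lower. B and plasma cell markers (1 of 5 tested lower) and T and NK cell markers (0 of 4 past the threshold in either direction) had overlapping sums in the groups. Cd3e had at most 1 count in a library, and Cd8b1 was at 0 in all of them. Of 10 genes listed for antigens of the lineage cocktail, 5 were tested, and Itgam and Ly6c2 were past the threshold, in opposite directions. The T cell receptor chains of the cocktail were not in this list.

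Reads of some of the 10 genes could in part not be assigned uniquely, because close relatives share stretches of sequence. Of all 75-base windows, the read length, in the longest annotated transcript, 7.41% of those of Ly6c2 occur in Ly6c1, 7.38% of those of Fcgr3 in Fcgr2b and 5.96% of those of Lyz2 in Lyz1. For 6 of the 10 genes, no such window was found in another gene. Ly6c1 was at 1.71 ± 0.324 CPM in Ctrl and 1.54 ± 0.838 CPM in cKO (SD, n = 3 each; log2 fold change -0.15, adjusted p = 0.87), and Lyz1 had at most 4 counts in a library. Both were thus far below Ly6c2 and Lyz2. Exons of Csf1r overlap those of Hmgxb3 on the opposite strand over 871 bases, and the authors counted by strand.

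RefSeq windows upstream of the transcription start (GRCm38.p6) were found for 9 of the 10 genes, not for Csf1r. The 250 bases before each start were searched on both strands for letters bound by myeloid factors. The PU.1 core GAGGAAGT was present for Ly6c2 alone of the 9, and for 3 of 10 primary granule genes (Mpo, Elane and Prtn3), where 2.79% of 27025 genes hold it. The C/EBP letters TTGCNNAA were present for Fcgr3 alone of the 9 and for 1 of 10 granule genes (Fcnb), where 10.8% of genes hold them. The composite motif of PU.1 with an IRF factor and the IRF motif itself, which can overlap each other, were in none of the 9. They were present for 0 and 1 (Srgn) of 10 granule genes, against 2.68% and 3.46% of genes. The KLF box CCACCC was present for F13a1 alone of the 9 and for 6 of 10 granule genes, against 30.6% of genes. The stretches with a match in a pair of monocyte genes that fell, and in the granule genes Mpo and Elane for comparison, are shown with the match in capitals.
Ly6c2, chr15:75112026-75112125, minus strand: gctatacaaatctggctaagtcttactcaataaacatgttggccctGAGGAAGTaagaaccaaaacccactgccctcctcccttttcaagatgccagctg
Fcgr3, chr1:171059404-171059503, minus strand, match on the opposite strand: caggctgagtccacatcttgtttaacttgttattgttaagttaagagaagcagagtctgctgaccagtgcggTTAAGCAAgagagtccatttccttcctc
Mpo, chr11:87793534-87793633, plus strand: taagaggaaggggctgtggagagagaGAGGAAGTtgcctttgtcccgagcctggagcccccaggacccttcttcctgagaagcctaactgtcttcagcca
Elane, chr10:79886181-79886280, plus strand: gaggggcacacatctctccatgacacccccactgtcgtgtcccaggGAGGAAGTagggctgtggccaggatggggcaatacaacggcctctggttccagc
In the windows shown, the match in Ly6c2 begins 108 bases before the start and that in Elane 85 bases before it. Relative to the other RefSeq start of Ly6c2, the same site begins at -142, and a further match begins at -8. Ccr2 and F13a1, which fell the most of the 10 genes, held no PU.1 match. A link between motif and change was not tested. The promoter of Fcgr3 shown here is that of a RefSeq start that lies inside the gene model of the count table. The 6 genes Ly86, Igsf6, Lyz2, Ccr2, Klf4 and Tnfaip2 held none of the 5 motifs in these windows.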

How the data were processed

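The authors aligned single reads to GRCm38/mm10 with GSNAP and counted uniquely aligned fragments per gene with featureCounts 1.5.0, by strand and with a minimum mapping quality of 1, on Ensembl gene models. The deposited counts are not normalized, and mice were not pooled. The deposited gene length in bases, an other column of the table, is the summed exon length. Symbols came from GENCODE M21, which named 98.8% of the gene identifiers.

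Counts were tested with edgeR 4.0.16 in R 4.3.3 (TMM, filterByExpr defaults, quasi-likelihood test, genotype as the only term, all 6 libraries), with Benjamini-Hochberg adjustment over all genes tested and a threshold of 0.05. Standard errors (SE) were derived from each log2 fold change and its F statistic. Log2 CPM used a prior count of 2. DESeq2 1.42.0, the tool of the study, was an alternative. On simulated counts with 200 of 15184 genes changed by 1.5 on the log2 scale, 87.5% were recovered, with 10 false calls among 185. The lowest counts among the 10 genes were those of Klf4.

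Genes named in the text are the 10 genes, Setd1b, their relatives, Spi1, Irf8, Cebpa, Gfi1, Mpo, Elane and up to 4 genes with the smallest adjusted p-values per list. Cx3cr1, Mpeg1, Apoe, Csf2ra, Csf2rb, Fcer1g, Tyrobp, Csf3r, Psap, Ctsb, Lgmn, Ctss and others were named after their values had been seen. The genes and lists were chosen with earlier results of these data known. One listed gene, Lilrb4a, was not matched by symbol. Some items are not reported.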

Additional observations from a re-analysis of the deposited data

How the results depend on the processing

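The number of the 10 genes lower in cKO was 8 in 5 of the planned settings (DESeq2's size factors, no filter, a minimum of 10 counts per library, the abundant transcripts Gm42418 and Gm26917 left out, and the DESeq2 test), 9 with the library series as a covariate, 7 at an adjusted p under 0.01, and 7 to 8 with 1 mouse left out. Their median log2 fold change was -1.21 with the series as a covariate and between -1.13 and -0.84 with 1 mouse left out, nearest to 0 without Ctrl mouse AI03. Over 13 settings for each of the 10 genes, 123 values kept their direction and their side of the threshold, 5 (all of Ly86) lost the call, 1 (Lyz2) gained it and 1 (Klf4) reversed, at -0.22 without cKO mouse AH74. Ly6c1 reversed to 0.13 without cKO mouse AI02, and Csf2ra to 0.022 without cKO mouse AH74. Over the fits that omit a single mouse, Klf4 ranged from -0.22 to 0.43, Ly6c1 from -0.68 to 0.13 and Csf2ra from -0.12 to 0.022.

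At an adjusted p under 0.01 the counts were 1 higher receptor, 1 higher effector, 0 higher transcription factors, 1 lower shared gene, 0 lower late neutrophil genes and 0 lower dendritic cell genes. With the minimum of 10 counts, 1 late neutrophil and 1 dendritic cell gene were lower, and 1 dendritic cell gene with the series as a covariate or with DESeq2, and the cause was not tested. With 1 mouse left out, 1 to 2 receptors, 1 to 3 effectors and 0 to 2 transcription factors were higher, and 1 to 3 shared, 0 to 2 late neutrophil and 0 to 3 dendritic cell genes were lower.

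No paired analysis was possible because the labels give the mice no replicate numbers and do not say which littermates belong together. The library series was a covariate, not a pairing. Intervals of counting were not computed. The p-values test the difference between the genotypes against a spread between mice that was estimated from all libraries of a fit. Genes under about 1 CPM could not be judged at this depth.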
